A study of Mus musculus with 2 samples.

Results

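A set of 8 genes that control the breakdown of muscle protein or hold back muscle growth was followed across single myofibers of the mouse flexor digitorum brevis (FDB), a fast-twitch muscle of the hind foot. They are the ubiquitin ligase genes Trim63, Fbxo32 and Fbxo30, the transcription factor genes Foxo1, Foxo3 and Klf15, the growth inhibitor gene Mstn, and Ddit4, an inhibitor of mTOR signalling. These 8 rows were taken by name from the 35163 gene rows of the table, and all 8 were present. The material came from 1 male C57BL/6J mouse over 3 months of age, so all myofibers together are 1 biological sample. The single mouse and its strain follow the design text of the series. The paper names mice of both C57BL/6J and DBA2 backgrounds for its study and does not assign them to myofibers. The muscle was digested with collagenase, and whole myofibers and fragments were placed 1 per well with a large-particle sorter. They form 8 plates, a plate being the cells that share a library index (705 to 712), and these ran on 2 sequencing lanes, which are the 2 labelled samples. The 763 full barcodes were all different and 0 were shared between the lanes. The cell-specific ends of these barcodes, 96 in all, each occurred in both lanes. The rest of the barcode told the lanes apart, so the 0 is no independent check that the lanes hold different cells. Of these 763 cells, 171 had more than 5000 detected genes and less than 20% of their counts from mitochondrial genes, and 3 of the 171 were fragments. Each was put into the class of its most abundant myosin heavy chain transcript among Myh1, Myh2, Myh4, Myh7 and Myh8, which gave 117 fast 2X (Myh1), 51 fast 2A (Myh2), 1 fast 2B (Myh4) and 2 slow (Myh7) myofibers.

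In muscle, growth signals through insulin and IGF1 activate AKT, which keeps FOXO transcription factors out of the nucleus. When AKT falls silent, FOXO1 and FOXO3 enter the nucleus and raise transcription of ligases such as MuRF1 (the product of Trim63) and atrogin-1 (the product of Fbxo32), which mark muscle proteins for the proteasome. Glucocorticoids act on the same genes through their receptor and through KLF15 and REDD1, the product of Ddit4. Myostatin, the product of Mstn, is a secreted factor of the TGF-beta family made by myofibers that signals through activin receptors and SMAD2 and SMAD3 and holds muscle mass down.

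The stretches of 250 bases before the transcription start of Trim63 and Mstn are shown because Mstn has the largest class difference described below and the Trim63 stretch is the only one of the 7 with a FOXO or glucocorticoid receptor motif. Sequences are from RefSeq on GRCm38.p6, where 7 of the 8 members matched and Fbxo32 did not. Motifs were searched on both strands: TGTTTAC for the FOXO core, AGAACA for the glucocorticoid receptor element, CANNTG for the E-box bound by factors of the MyoD family, and TATAAA for the TATA box, the last 2 chosen after the sequences were seen. In the Trim63 stretch (chr4:134314870-134315119, plus strand) the capitals mark the glucocorticoid receptor motif, read on the opposite strand and beginning 200 bases before the start, and the FOXO core directly after it at 194 bases. In the Mstn stretch (chr1:53061390-53061639, plus strand) the capitals mark E-boxes that begin 229, 174, 52 and 19 bases before the start and the TATA box at 29 bases. The Trim63 stretch also holds E-boxes at 149, 72 and 50 bases and a TATA box at 31 bases, left in lower case, and the stretches of Foxo1 and Klf15 hold E-boxes, so these motifs are not particular to Mstn.
Trim63: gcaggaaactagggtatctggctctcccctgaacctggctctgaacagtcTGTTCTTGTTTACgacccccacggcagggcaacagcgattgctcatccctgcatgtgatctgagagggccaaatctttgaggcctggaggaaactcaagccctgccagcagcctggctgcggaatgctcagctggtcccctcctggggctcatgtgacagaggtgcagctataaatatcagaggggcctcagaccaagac
Mstn: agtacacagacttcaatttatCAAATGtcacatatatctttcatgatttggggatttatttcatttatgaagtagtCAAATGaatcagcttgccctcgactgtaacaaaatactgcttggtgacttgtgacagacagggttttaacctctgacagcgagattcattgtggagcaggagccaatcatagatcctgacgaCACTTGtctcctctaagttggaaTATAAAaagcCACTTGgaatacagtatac
Of 32851 promoter stretches of the same length, 3.17% held the FOXO core, 16.1% the glucocorticoid receptor motif, 66.2% an E-box and 12.4% the TATA box. Neither the FOXO core nor the glucocorticoid receptor motif lay in the stretches of Fbxo30, Foxo1, Foxo3, Mstn, Klf15 or Ddit4. A match is a run of letters and was not tested as a binding site.

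The unit of all levels below is CPM, the number of unique molecular identifiers (UMIs, one per captured RNA molecule) of a gene per 1000000 UMIs of all genes. It is not divided by transcript length, so levels were compared between myofibers and not between genes. The 117 fast 2X myofibers held 39180010 UMIs, with a median of 255726 and a range from 28827 to 1542996 per myofiber, and the 51 fast 2A myofibers held 11907400, with a median of 206510. The median mitochondrial share was 5.01% in fast 2X and 6.96% in fast 2A. All 5 myofiber markers (Ttn, Acta1, Ckm, Neb and Mylpf) had UMIs in 100% of fast 2X myofibers. Of the 30 markers of other cells (endothelial, smooth muscle, fibroblast, satellite, leukocyte and Schwann cells), 0 were without counts, and each was seen in 12.0% to 96.6% of fast 2X myofibers. The summed level of these lists in the 117 myofibers ran from 17.0 CPM for leukocytes to 111 CPM for satellite cells, of which Sdc4 alone gave 93.7 CPM. A class level is the summed count over its myofibers, with exact Poisson 95% limits, and limits cover counting error only. With 1 mouse there is no replicate of a class, so no p-value is given.

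Mstn (chr1:53061640-53068079 on GRCm38, plus strand) showed the largest difference between the classes among the members with at least 500 counts. Single fast 2X myofibers ran from 0 to 119 CPM with a median of 26.1, and single fast 2A myofibers from 0 to 60.2 CPM with a median of 10.9. The classes overlapped: 42 of 51 fast 2A myofibers (82.4%) lay under the fast 2X median, and 20 of 117 fast 2X myofibers (17.1%) lay above the highest fast 2A myofiber. Summed counts gave 46.5 CPM (44.4 to 48.7) in fast 2X and 15.8 CPM (13.6 to 18.2) in fast 2A, 2.95-fold higher in fast 2X (limits 2.53 to 3.44). On the log2 scale of fast 2A over fast 2X this was -1.56 (-1.78 to -1.34), and 37 of the 8744 genes with at least 500 counts had a lower ratio. The 3 myofibers of the rarer classes had very little Mstn: 1 UMI in the fast 2B myofiber (3.89 CPM, limits 0.0985 to 21.7), 1 UMI in the deeper slow myofiber (2.09 CPM, 0.0529 to 11.6), and 0 UMIs of 100629 in the other slow myofiber, which allows up to 36.7 CPM.

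**Figure D1:**
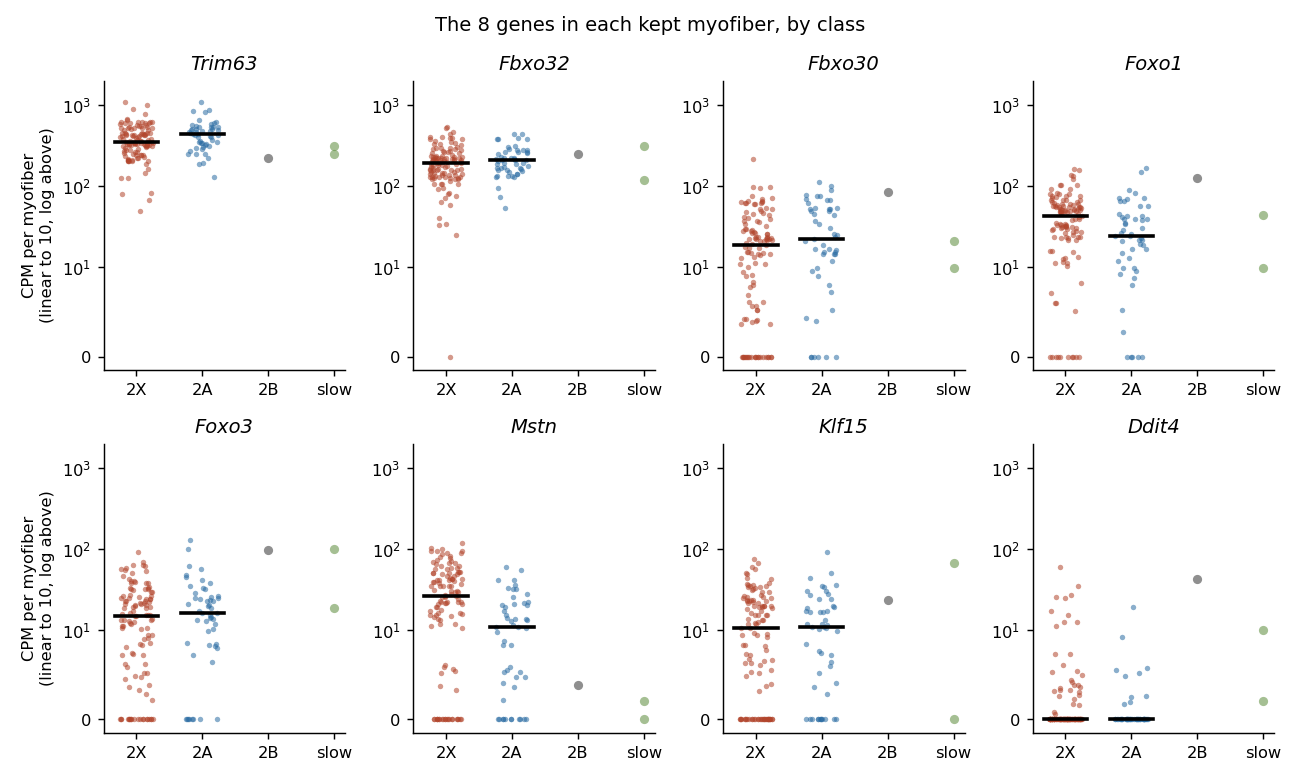
Level of each of the 8 genes (CPM, vertical axis linear to 10 and logarithmic above) in every kept myofiber, 1 point each, for 117 fast 2X, 51 fast 2A, 1 fast 2B and 2 slow myofibers, with black bars at the class medians. The fast 2A median of Mstn (10.9 CPM) lies under that of fast 2X (26.1 CPM), while the points of both classes overlap for every gene.

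The Mstn ratio was below 0 in every plate and lane compared, though its size varied. In 7 plates with at least 3 myofibers of each class, the fast 2A level was under the fast 2X level in 7 of 7, with log2 ratios from -2.94 to -0.14. The smallest came from plate 705, with 22.2 CPM in 6 fast 2X and 20.2 CPM in 10 fast 2A myofibers, and its limits included 0. Lane 1 gave -1.18 (31.4 CPM in fast 2X and 13.8 in fast 2A) and lane 2 gave -1.67 (58.7 and 18.4). The fast 2X level itself differed between plates, from 22.2 to 83.1 CPM.

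Within fast 2X, Mstn was highest in the myofibers with the least Myh2. Across all 168 fast 2X and 2A myofibers in 5 bins of rising Myh2 share (Myh2 UMIs over those of Myh1 and Myh2), the summed level fell from 65.4 to 43.9, 25.03, 19.8 and 15.4 CPM. In fast 2X alone, 3 bins of 39 myofibers gave 62.4 (58.8 to 66.2), 37.9 (34.6 to 41.4) and 25.2 CPM (21.8 to 28.9). Depth moved in the same order, since the median total of these 3 bins was 387614, 279563 and 120365 UMIs, and Mstn rose with depth in fast 2X, from 17.1 CPM in the shallowest 39 myofibers to 29.9 and 55.6 CPM. With both medians as dividers (255726 UMIs and a Myh2 share of 22.1%), Mstn in the shallower fast 2X myofibers was 30.7 CPM (24.2 to 38.3) at low and 16.7 CPM (13.1 to 21.0) at high Myh2 share. In the deeper ones it was 59.8 CPM (56.6 to 63.0) at low and 32.0 CPM (28.5 to 35.8) at high share. So the level was lower with more Myh2 at either depth, and higher in deeper myofibers at either share. These groups pool the plates, and plate 712 had the highest fast 2X level, at 83.1 CPM. The part of plates in these differences was not tested. Relative to depth and class level, Mstn had r = -0.40 with the Myh2 share over 117 fast 2X myofibers. Over 51 fast 2A myofibers that r was 0.05. Among myofibers with 100000 to 400000 UMIs, 55 fast 2X and 32 fast 2A, the log2 ratio of Mstn between the classes was -1.36.

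**Figure D2:**
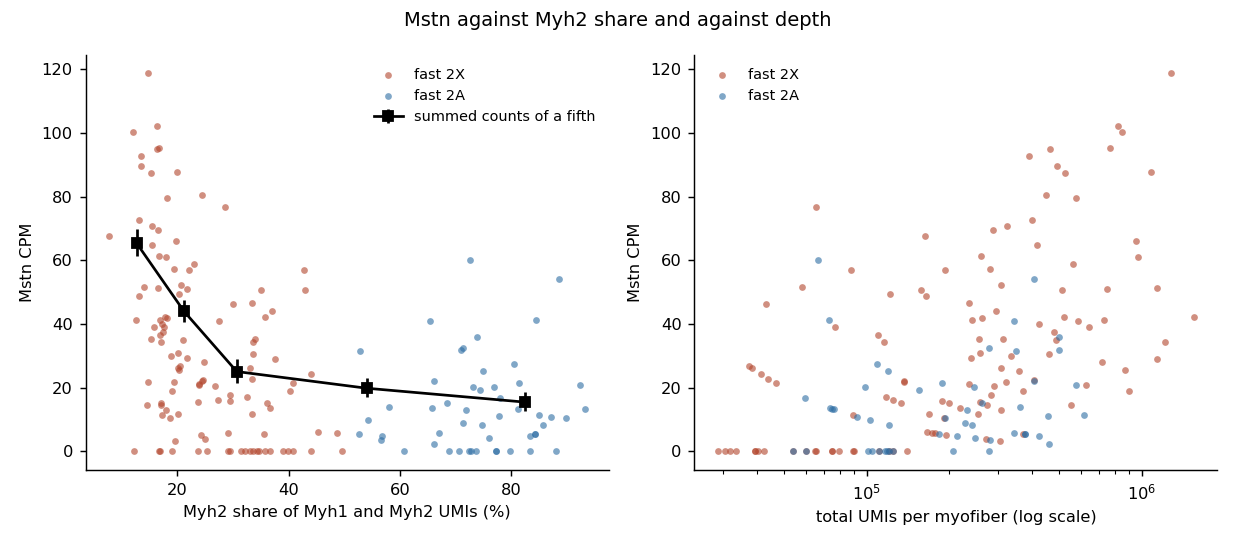
Mstn level (CPM) of each fast 2X and fast 2A myofiber against the Myh2 share of Myh1 and Myh2 UMIs (left, %) and against total UMIs (right, log scale). Black squares are summed levels with 95% limits in 5 bins, drawn at the middle of each bin's range, and fall from 65.4 to 15.4 CPM.

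Mstn was set beside other genes of a list of 25 for myostatin, activin and BMP signalling, which includes Mstn itself. Of 21 with at least 100 counts, Mstn among them, 0 were at least 1.5-fold higher in fast 2A and 17 lay between the folds. The 4 that were at least 1.5-fold higher in fast 2X were Mstn, Gdf11, Acvr1b and Fstl1. The median log2 ratio of the 21 was -0.18. Over all 15813 genes with at least 100 counts, 4.17% passed that fold in the fast 2A direction and 14.3% in the fast 2X direction, and the median was -0.12. Gdf11, the closest relative of Mstn and also a ligand of activin receptors, was 43.7 CPM in fast 2X and 12.6 CPM in fast 2A, a log2 ratio of -1.80 (-2.05 to -1.55), and was lower in fast 2A in 7 of 7 plates. None of the 2704 stretches of 66 bases, the length of the cDNA read, in Mstn transcripts occurs in Gdf11 transcripts (0 shared), and across the 117 fast 2X myofibers the residuals of Mstn and Gdf11 had r = 0.12. Acvr1b, the type I receptor ALK4, was 39.2 and 19.99 CPM, a log2 ratio of -0.97 (-1.17 to -0.77), also lower in fast 2A in 7 of 7 plates. Fstl1, a secreted follistatin-like protein, had a log2 ratio of -0.60 (-0.84 to -0.37), but it was lower in only 3 of 7 plates and its highest fast 2X myofiber reached 598 CPM against a median of 12.7. The receptors Acvr2a and Acvr2b and the signal carriers Smad2, Smad3 and Smad4 were among the 17 between the folds.

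Across the members as a whole, 7 of 8 had at least 500 counts over the kept myofibers, and Ddit4 with 95 UMIs did not. Of these 7, 0 were at least 1.5-fold higher in fast 2A (background 2.57% of 8744 genes), 2 were at least 1.5-fold higher in fast 2X (background 7.43%), and 5 lay between. Those 2 were Mstn and Foxo1. The median log2 ratio of the 7 was -0.01, against -0.09 for all 8744 genes, and the median size regardless of sign was 0.18 against 0.21. With TMM scaling the ratio of every gene shifts by 0.11, and the 225 genes higher in fast 2A and 650 higher in fast 2X become 385 and 402.

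**Figure D3:**
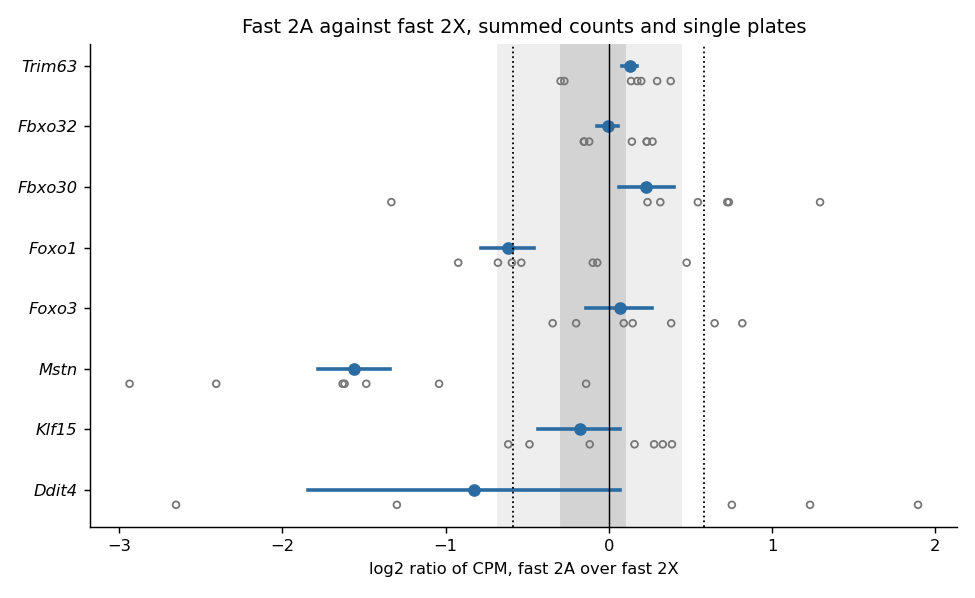
Log2 ratio of CPM in fast 2A over fast 2X for each gene (filled point) with 95% counting limits (bar), and the same in single plates with at least 3 myofibers of each class (open circles, where both classes had counts). Dotted lines mark 1.5-fold, and the dark band runs between the quartiles and the light band from the 5th to the 95th percentile of all genes with at least 500 counts. Mstn at -1.56 lies outside the light band.

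Trim63 (chr4:134315120-134329629, plus strand), which encodes the muscle-specific ligase MuRF1 that acts on thick filament proteins, was detected in every kept myofiber. Fast 2X myofibers ran from 49.8 to 1115 CPM with a median of 356, and fast 2A myofibers from 129 to 1099 CPM with a median of 438. The classes overlapped over nearly their whole range, and 18 of 51 fast 2A myofibers lay under the fast 2X median. The summed levels were 387 CPM (381 to 394) in fast 2X and 424 CPM (412 to 435) in fast 2A, a log2 ratio of 0.13 (0.08 to 0.17). Single plates ran from -0.30 to 0.38, with fast 2A higher in 5 of 7. The fast 2B myofiber had 222 CPM (168 to 287), and the slow myofibers 317 CPM (269 to 372) and 248 CPM (161 to 367).

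Trim63 varied between myofibers of one class by less than most genes, on a measure set mostly by the deeper myofibers. Its spread beyond counting error, as a coefficient of variation (CV), was 32.9% in fast 2X and 32.2% in fast 2A, and 19.6% and 13.95% of all genes with at least 500 counts had a lower spread. Each myofiber enters a spread by the square of the count expected from its depth. The highest fast 2X myofiber, at 1115 CPM, held only 41244 UMIs, and without it the spread stayed at 32.9%. The Trim63 level moved with the mitochondrial share of the myofiber. In fast 2X, 3 bins of 39 myofibers of rising mitochondrial share gave 454 (443 to 465), 375 (366 to 384) and 281 CPM (268 to 294), and in fast 2A 3 bins of 17 gave 463, 454 and 373 CPM. Every other member was also lower in the last fast 2X bin than in the first, as Mstn (29.9 against 45.6 CPM) and Fbxo30 (16.7 against 29.7 CPM). The total behind CPM includes mitochondrial UMIs, and the last bin was shallower, with a median of 121286 against 306519 UMIs. Pearson's r of the Trim63 residual with the mitochondrial share was -0.35 over 117 fast 2X and -0.46 over 51 fast 2A myofibers. The residual is the deviation of a count from that given by depth and class level, and myofibers of a class share plates and lanes.

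The genes most like Trim63 across fast 2X myofibers, by the correlation of residuals among genes with at least 1000 counts, were Hk2, Hspb8 and Ip6k3. Hk2, the hexokinase that traps glucose in muscle, had r = 0.69 over 117 fast 2X myofibers and 0.29 over 51 fast 2A myofibers. Hspb8, a small heat shock protein of chaperone-assisted autophagy, had r = 0.63 and 0.52. Ip6k3, an inositol hexakisphosphate kinase, had r = 0.57 and 0.51. In all, 74 genes reached r of 0.4 with Trim63 in fast 2X. Hk2 and Hspb8 also fell with the mitochondrial share, at r of -0.39 and -0.42, and the part of that share in these likenesses was not tested. Pdk4, a FOXO target that turns muscle from glucose to fatty acids, named here after its value was seen, had r = 0.55 with Trim63 in fast 2X and 0.61 in fast 2A. Immediate-early genes ranked as high: Nr4a1 had r = 0.56 and 0.37, and Junb, the gene most like Trim63 in fast 2A, had 0.46 and 0.63. The summed list of stress genes had r = 0.24 with Trim63 in fast 2X and 0.32 in fast 2A, and the part of isolation in these likenesses was not tested.

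Fbxo32 (chr15:58175879-58214932, minus strand) encodes atrogin-1, the F-box subunit of an SCF ligase. Fast 2X myofibers ran from 0 to 545 CPM with a median of 193, and fast 2A myofibers from 54.4 to 446 CPM with a median of 210. Summed levels were 210.3 CPM (206 to 215) and 209.3 CPM (201 to 218), and the log2 ratio of -0.01 had limits of -0.07 to 0.06. The fast 2B myofiber had 249 CPM, and the slow myofibers had 315 CPM (267 to 370) and 119 CPM (61.6 to 208). Its spread was 36.5% in fast 2X, 31.2% without the highest myofiber, and 26.2% in fast 2A, where 6.46% of genes had a lower one. Fbxo32 and Trim63, often read together as atrophy genes, had r = 0.17 across fast 2X myofibers. The genes most like Fbxo32 were Luc7l2 (r = 0.44), Car3 (0.43) and Zfp703 (0.42), and 6 genes in all reached 0.4. Among these 6 was the antisense gene Gm15943 (chr15:58214475-58324053), with r = 0.41 in fast 2X and 0.13 in fast 2A. Gm15943 had 2315 UMIs and overlaps only the transcription start of Fbxo32, away from the 3′ end that these libraries tag. Where counting did not use strand, reads inside that overlap cannot be told apart.

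Fbxo30 (chr10:11281330-11298052, plus strand) encodes MUSA1, another F-box ligase subunit of atrophy. Fast 2X myofibers ran from 0 to 215 CPM with a median of 18.7, and fast 2A myofibers from 0 to 113 CPM with a median of 21.9. Summed levels were 28.1 CPM (26.4 to 29.8) and 32.9 CPM (29.7 to 36.3), a log2 ratio of 0.23 (0.06 to 0.40). Its direction was higher in fast 2A in 6 of 7 plates, but over a wide range from -1.33 to 1.29. The fast 2B myofiber had 85.6 CPM (53.6 to 130). In fast 2X its spread of 69.3% was wider than that of 85.9% of genes, and in fast 2A it was 57.0%, or 88.3% in thinned myofibers. Azin1, an inhibitor of antizyme in polyamine control, was the gene most like Fbxo30, with r = 0.54 in fast 2X and 0.49 in fast 2A, followed by Card14 (0.54) and Kpna4 (0.51). In fast 2A, Fbxo30 had r = 0.53 with a list of 15 stress genes that includes immediate-early genes such as Fos, Jun and Egr1, against 0.19 in fast 2X.

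Among 21 genes of a list of muscle ubiquitin ligases and partners with at least 100 counts, 0 were at least 1.5-fold higher in fast 2A and 1 was at least 1.5-fold higher in fast 2X, with a median log2 ratio of -0.03, beside 4.17% and 14.3% of all 15813 genes. That gene was Fbxl22, an F-box protein of the sarcomere, at 5.79 CPM in fast 2X and 3.44 CPM in fast 2A from 227 and 41 UMIs, a log2 ratio of -0.75 (-1.27 to -0.27). The MuRF relatives Trim54 and Trim55 had ratios of -0.08 and 0.26.

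**Figure D4:**
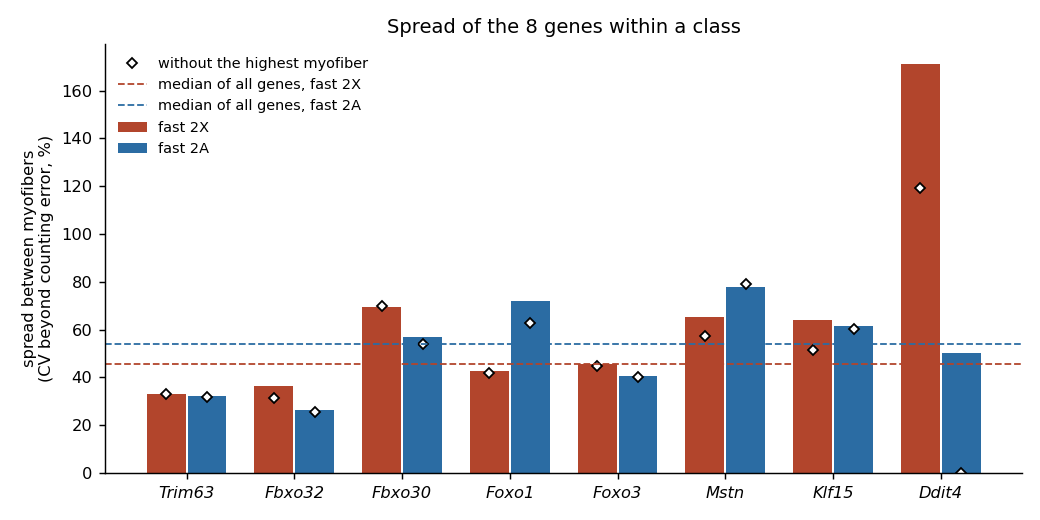
Spread of each gene between myofibers of one class, as the CV beyond counting error (%), in 117 fast 2X (red bars) and 51 fast 2A (blue bars) myofibers, with diamonds for the value without the myofiber of highest CPM. Dashed lines are the medians of 8744 genes, 45.8% and 54.1%, and the bars of Trim63 and Fbxo32 stay under both lines. Deeper myofibers weigh more in every value.

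Foxo1 (chr3:52268336-52353221, plus strand), a FOXO factor that also steers muscle fuel use, was lower in fast 2A than in fast 2X by summed counts. Fast 2X myofibers ran from 0 to 165 CPM with a median of 42.3, and fast 2A myofibers from 0 to 166 CPM with a median of 24.2. The classes covered the same range, but 37 of 51 fast 2A myofibers (72.5%) lay under the fast 2X median. Summed levels were 48.1 CPM (46.0 to 50.4) in fast 2X and 31.4 CPM (28.3 to 34.8) in fast 2A, a log2 ratio of -0.62 (-0.78 to -0.46), 1.53-fold. The ratio was negative in 6 of 7 plates and positive in plate 712, at 0.48. It fell short of 1.5-fold without lane 1 (-0.35), without plate 705 (-0.44), 708 (-0.57) or 710 (-0.49), as the mean over myofibers (-0.38), and among myofibers with 100000 to 400000 UMIs (-0.20). So its place past the fold rested on which myofibers were counted and how. The fast 2B myofiber had 125 CPM (85.2 to 176) and also 4058 CPM of the 30 markers of other cells, against a median of 247 CPM over the kept myofibers.

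In fast 2X, Foxo1 also moved with transcripts of cells other than myofibers. Across the fast 2X myofibers its residual had r = 0.44 with fibroblast, 0.34 with smooth muscle and 0.33 with endothelial markers, and 0.36 with all 30 markers. In fast 2A the same values were 0.17, -0.08, 0.08 and 0.23. The fast 2X myofiber with the most Foxo1 (165 CPM) also held 3202 CPM of those markers, and its part in the fast 2X values was not tested. The genes most like Foxo1, Pdzd2 (r = 0.59), Plcb4 (0.53) and Mctp1 (0.53), had r of 0.53, 0.64 and 0.58 with those markers, and in fast 2A their r with Foxo1 was -0.01, -0.07 and 0.06. Without the 17 kept myofibers with the highest summed level of those markers (533 CPM or more), the log2 ratio of Foxo1 between the classes was -0.61. The spread of Foxo1 was 42.7% in fast 2X and 71.9% in fast 2A, or 62.9% there without its highest myofiber. These values were unsteady, since the fast 2X spread was 26.4% without lane 2 and the fast 2A spread was 113% in myofibers thinned to 28827 UMIs.

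Foxo3 (chr10:42181841-42276755, minus strand), a FOXO factor tied to autophagy in muscle, had class levels whose counting limits overlapped. Fast 2X myofibers ran from 0 to 91.5 CPM with a median of 14.7, and fast 2A myofibers from 0 to 129 CPM with a median of 16.2. Summed levels were 21.3 and 22.3 CPM, a log2 ratio of 0.07 (-0.14 to 0.27), and single plates ran from -0.34 to 0.82. The fast 2B myofiber had 97.3 CPM (62.9 to 144) from 25 UMIs, and one slow myofiber had 99.4 CPM (47.7 to 183) from 10 UMIs. Markers of other cells were high in this fast 2B myofiber (4058 CPM) and in the fast 2X myofiber with the most Foxo3 (3202 CPM), and their part in these levels was not tested. The spread of Foxo3 was 45.8% in fast 2X, or 78.3% in thinned myofibers, and 40.7% in fast 2A. Only Raph1, a regulator of actin at the cell edge, reached r of 0.4 with it in fast 2X (0.44).

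Of 19 FOXO genes and known FOXO targets with at least 100 counts, 2 were at least 1.5-fold higher in fast 2A, 1 (Foxo1) was at least 1.5-fold higher in fast 2X and 16 lay between, with a median log2 ratio of 0.07, beside 4.17% and 14.3% of all 15813 genes. Ctsl, the lysosomal protease cathepsin L, was 44.0 CPM in fast 2X and 70.2 CPM in fast 2A, a log2 ratio of 0.67 (0.55 to 0.79), and was higher in fast 2A in 7 of 7 plates. Sesn3, a sestrin that restrains mTORC1, was 12.4 and 19.99 CPM, a log2 ratio of 0.69 (0.46 to 0.92), higher in 6 of 7 plates. Pdk4, between the folds at 290 CPM in fast 2X and 361 CPM in fast 2A (0.32, limits 0.27 to 0.37), was higher in fast 2A in 7 of 7 plates. The place of FOXO protein in the cell, which sets its activity, was not measured.

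Klf15 (chr6:90462576-90475238, plus strand), a glucocorticoid-induced factor that raises breakdown of branched-chain amino acids, had the same median in both classes. Fast 2X myofibers ran from 0 to 75.8 CPM and fast 2A myofibers from 0 to 92.0 CPM, with a median of 10.6 CPM in each. Summed levels were 16.3 CPM (15.0 to 17.6) and 14.4 CPM (12.3 to 16.7), a log2 ratio of -0.18 (-0.43 to 0.07). One slow myofiber stood out with 32 UMIs, or 66.8 CPM (45.7 to 94.3), while the other had 0 UMIs. Its spread was 63.9% in fast 2X, 51.4% without the highest myofiber, which held 42 UMIs, and 61.3% in fast 2A, or 38.6% there without lane 2. The genes most like it were Avil (r = 0.47), Lin52 (0.46) and Wdr45b (0.44), which had r of 0.08, 0.10 and 0.02 in fast 2A.

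Ddit4 (chr10:59949669-59951834, minus strand) was at the edge of detection and sat in a few myofibers. It had 70 UMIs in fast 2X (1.79 CPM, 1.39 to 2.26) and 12 in fast 2A (1.01 CPM, 0.521 to 1.76), a log2 ratio of -0.83 with limits from -1.85 to 0.07. Single myofibers ran from 0 to 59.5 CPM in fast 2X and from 0 to 19.1 CPM in fast 2A, with a median of 0 in both. Of the 95 UMIs, 40 (42.1%) lay in 5 myofibers. The highest, a fast 2X myofiber of plate 711, had 13 UMIs and 3202 CPM of the 30 markers of other cells, against a median of 247 CPM over the kept myofibers, and the fast 2B myofiber had 11 UMIs and 4058 CPM. Ranks 3 to 5 had 1026, 265 and 240 CPM of these markers. Across fast 2X myofibers Ddit4 had r = 0.48 with all of these markers, 0.51 with smooth muscle and 0.47 with endothelial markers. In fast 2A the same values were 0.27, 0.11 and 0.15. The part of the highest myofiber in the fast 2X values was not tested. Ddit4l, a relative of Ddit4 and another inhibitor of mTOR, was at 729 CPM in fast 2X and 411 CPM in fast 2A, a log2 ratio of -0.83 (-0.87 to -0.78), lower in fast 2A in 7 of 7 plates. The transcripts of Ddit4 and Ddit4l share 0 of 1690 stretches of 66 bases, and their residuals had r = -0.20 in fast 2X.

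**Figure D5:**
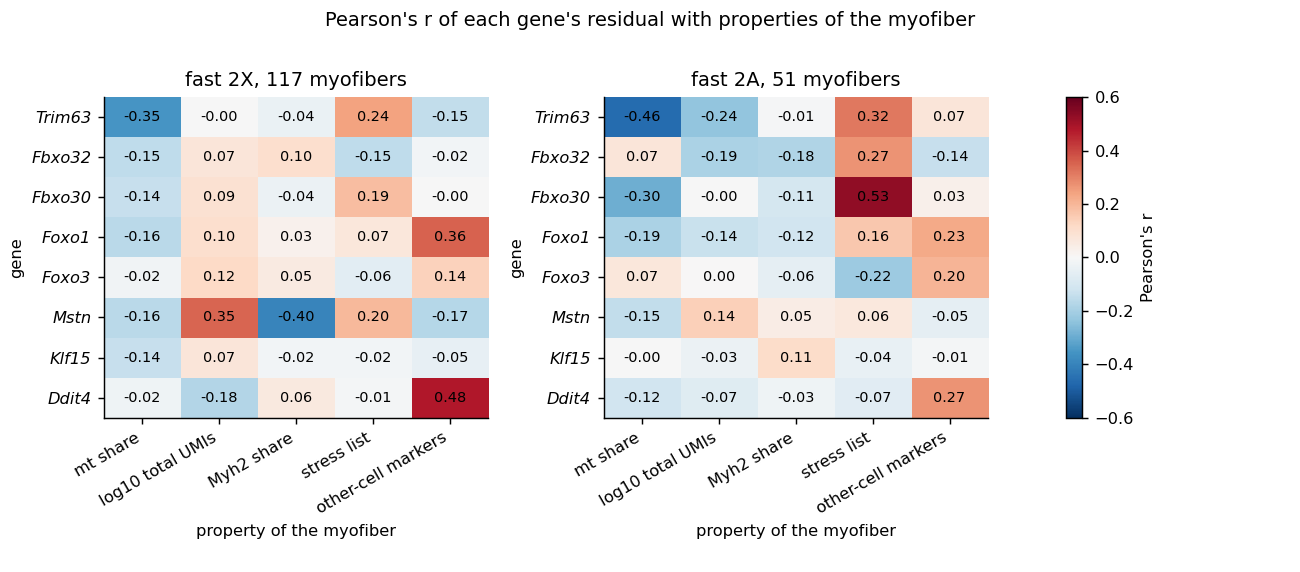
Pearson's r of the residual of each gene (rows) with the mitochondrial (mt) share, log10 of total UMIs, the Myh2 share, the summed stress genes and the summed markers of other cells (columns), in 117 fast 2X (left) and 51 fast 2A (right) myofibers. Trim63 has its lowest values with the mitochondrial share (-0.35 and -0.46), and Ddit4 its highest with the markers of other cells in fast 2X (0.48).

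The signals on either side of these genes were read from lists of the same kind, for which the background is again 4.17% of 15813 genes in the fast 2A and 14.3% in the fast 2X direction. Of 21 genes of insulin and AKT signalling with at least 100 counts, 0 passed the fold in fast 2A and 1 in fast 2X. That gene was Deptor, an inhibitor of mTOR, at 44.7 CPM in fast 2X and 22.6 CPM in fast 2A, a log2 ratio of -0.98 (-1.17 to -0.80), lower in fast 2A in 6 of 7 plates. Of 15 glucocorticoid-response genes, 0 passed in fast 2A and 2 in fast 2X, with a median log2 ratio of 0.05. Tsc22d3, the glucocorticoid-induced leucine zipper, was 220 CPM in fast 2X and 123 CPM in fast 2A, a log2 ratio of -0.84 (-0.92 to -0.76). Sgk1, a kinase close to AKT, was 45.7 and 25.7 CPM, a log2 ratio of -0.83 (-1.01 to -0.65). Both were lower in fast 2A in 7 of 7 plates, while Nr3c1, the receptor itself, had a ratio of 0.05. Of 14 genes of stress after isolation, Ddit3 (0.63) passed in fast 2A, and Fosb (-1.002) and Ddit4l passed in fast 2X. The digestion ran at body temperature before capture, and its part in these levels was not tested.

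The residuals of the members were weakly correlated with each other. Over the 28 pairs, the median r was 0.00 in fast 2X and 0.04 in fast 2A. The highest in fast 2X was 0.37 between Foxo1 and Ddit4, and 0 pairs reached 0.4. The same fast 2X myofiber, with 218585 UMIs, had the highest CPM of both Foxo1 (36 UMIs) and Ddit4 (13 UMIs). Its part in this r was not tested. The highest in fast 2A was 0.41 between Fbxo30 and Foxo1. Counting error lowers such values for genes of few counts. The median count per fast 2X myofiber was 4 UMIs for Fbxo30, 3 for Foxo3, 4 for Klf15 and 0 for Ddit4. A low r of these genes therefore does not show that their levels were unrelated. The genes most like Mstn in fast 2X were Atf2 (r = 0.55), a transcription factor of stress kinases, Ankrd13a (0.54), which binds ubiquitin, and Cpeb1 (0.53), which controls polyadenylation. Ankrd13a was also the gene most like Mstn in fast 2A, at r = 0.58, while Atf2 and Cpeb1 had 0.03 and 0.11 there. For Foxo1 and Ddit4, 136 and 101 genes reached 0.4 in fast 2X. The median spread of the 7 members with enough counts was 45.8% in fast 2X and 57.0% in fast 2A, against 45.8% and 54.1% for all genes.

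The share of myofibers with at least 1 UMI depended on depth. Mstn was seen in 82.1% of fast 2X (exact limits 73.9 to 88.5) and 78.4% of fast 2A myofibers (64.7 to 88.7). When each myofiber was thinned to 28827 UMIs, the total of the shallowest, these became 50.7% and 30.1%. Foxo1 went from 91.5% and 90.2% to 63.9% and 50.6%, while Trim63 stayed at 99.9% in both classes. Ddit4 went from 28.2% and 19.6% to 6.62% and 3.04%. Markers of other cells, thinned the same way, covered a wide range. The leukocyte marker Ptprc was seen in 6.37% of fast 2X and 7.75% of fast 2A myofibers. The fibroblast marker Dcn was seen in 28.8% and 28.3%, and the endothelial marker Pecam1 in 42.5% and 47.8%. Klf15 (32.6% and 31.9%), Foxo3 (37.4% and 42.3%) and Mstn in fast 2A lay between the shares of Ptprc and Pecam1. The shares of these members, like those of Ddit4, were not read by themselves as expression.

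The 592 cells outside the filters had a median of 16032 UMIs and 48.0% mitochondrial counts, so their levels were set per 1000000 UMIs of non-mitochondrial genes. On this scale Trim63 was 291 CPM against 419 in the 171 kept myofibers, Fbxo32 was 148 against 224, and Mstn was 16.7 against 41.2. Foxo1 was instead 74.9 (68.8 to 81.4) against 47.4 (45.5 to 49.4) and Ddit4 9.05 against 1.95. So Trim63, Fbxo32 and Mstn were lower, and Foxo1 and Ddit4 higher, outside the filters, where depth and the mitochondrial share differ as well and cannot be told apart from this.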

How the data were processed

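The authors sequenced mcSCRB-seq libraries, which tag the 3′ end of transcripts with UMIs, and mapped reads of 66 bases to GRCm38 with zUMIs and STAR (2.5.4b per the labels), counting genes with featureCounts. The deposited table gives UMI counts per gene and cell, handled as estimated counts because its columns also hold descriptive rows; all gene values were whole. The counting used the default settings of zUMIs, and the strand setting these imply is not spelled out in the sources used here. Columns of other samples numbered 0. The paper's filters (more than 5000 genes, under 20% mitochondrial) and the largest Myh gene set the classes. Counts were summed per class and scaled to CPM. Ratio limits are exact conditional binomial, level limits exact Poisson and shares Clopper-Pearson, all at 95%. Spread is the square root of the moment negative binomial dispersion, in which each myofiber is weighted by the square of the count expected from its depth. Likeness is Pearson's r of analytic Pearson residuals (theta 100). The scripts were tested on simulated data. The members and lists were chosen with earlier results of these data known. List genes were named at 1.5-fold with at least 100 counts, up to 6 per list, and for each member the 3 most alike genes with r of 0.4 or more in fast 2X. Python 3.11.15, numpy 2.4.6, scipy 1.17.1 and, for TMM factors only, edgeR 4.0.16 were used. Alternatives covered scaling, filters, class purity, depth, lanes and plates.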

Additional observations from a re-analysis of the deposited data

How the results depend on the processing

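The number of members past 1.5-fold was 2. It was 1 (Mstn) with TMM factors, with totals without mitochondrial genes, with the mean over myofibers, at a fold threshold of 2, and, chosen after seeing the data, among myofibers with 100000 to 400000 UMIs and without plate 705, 708 or 710. Leaving out a lane, which the labels call a sample, gave 1 to 2. Over 12 settings other than plates, the log2 ratio of Mstn ran from -1.67 to -1.18 and that of Foxo1 from -0.84 to -0.20. Leaving out plates in turn, Mstn ran from -1.70 to -1.39. Within plate 712 Foxo1 turned to 0.48. Of all genes, 225 were past the fold in fast 2A and 650 in fast 2X. These became 385 and 402 with TMM factors, 69 and 153 at a fold of 2, and 4034 and 6397 with at least 1 count in each class, a setting that adds genes of few counts. The median spread of the members stayed within 1.5 times its value in every setting run, but single spreads moved further: without lane 2, Foxo1 in fast 2X went to 26.4% and Klf15 in fast 2A to 38.6%, and thinned, Foxo1 and Fbxo30 in fast 2A went to 113% and 88.3% and Foxo3 in fast 2X to 78.3%. The spread of Ddit4 ran from 0% to 161% in fast 2A. For Ddit4 the ratio changed sign without lane 2 (0.19), and its 95 UMIs set the limit. No paired analysis was possible because the 2 labelled samples are lanes of 1 group from 1 mouse, and no test was run.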
